A study of Mus musculus with 6 samples.

Results

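The genes followed here encode plasma membrane transporters of amino acids that are known to respond to amino acid shortage or oxidative stress, and they were compared between macrophages with and without Drp1. They were taken as a list of 10 names, *Slc7a11*, *Slc3a2*, *Slc7a5*, *Slc1a4*, *Slc1a5*, *Slc38a1*, *Slc38a2*, *Slc7a1*, *Slc7a2* and *Slc6a9*, out of 36137 genes with a matched transcript. All 10 were among the 18506 genes with at least 10 counts in total, so none was lost to the filter on low counts. The RNA came from bone marrow–derived macrophages (BMDMs) exposed for 8 hours to hypoxia with serum starvation (HSS), a culture model of ischemia. The labels give 2.1% oxygen and 10% L929-conditioned medium for all cultures. WT cells were from *LysM*-Cre+/- *Drp1*+/+ mice and Drp1KO cells from *LysM*-Cre+/- *Drp1* fl/fl mice, so both groups carried the Cre that is expressed in myeloid cells. Each group had 3 libraries. According to the study's methods, marrow from mice of the same genotype was pooled and experiments were repeated, and the libraries of a group are counted as its replicates. Whether each library came from a separate pool is not stated for the RNA-seq in the sources used here, so a p-value measures only the spread between these libraries, which may be technical. Neither cells without HSS nor protein or transport measurements are part of these data.

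Transporters of this kind work as a small network. Slc3a2, the CD98 heavy chain, carries light chains such as Slc7a11 and Slc7a5 to the cell surface as disulfide-linked pairs. Slc7a11 exports glutamate for cystine, the source of cysteine for glutathione. Slc7a5 imports large neutral amino acids such as leucine in exchange for others, glutamine among them, and Slc1a5, Slc38a1 and Slc38a2 supply that glutamine. Slc7a1 and Slc7a2 import arginine, which macrophages use for nitric oxide, ornithine and polyamines. Many of these genes are known targets of ATF4, the transcription factor of the amino acid response, and *Slc7a11* is in addition a known target of NRF2, the factor of the antioxidant response.

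The sequence that ATF4 is known to bind with C/EBP proteins has the letters TGATGNAA, and it was looked for on both strands in the 250 bases before the start of each gene's leading transcript, which is its most abundant protein-coding transcript. It was found before 1 of the 10 genes, *Slc7a11*, and before 2.96% of all 18506 genes. The *Slc7a11* window held it in 2 copies that face each other, one at bases -65 to -58 and one at bases -46 to -39 from the start. The window also reads into a further transcript of the gene at its last bases, so the stretch from base -250 to base -8 is shown, with the motif copies in capitals. A second stretch is shown because *Slc38a1* transcripts with different first exons differed between the groups (given with that gene). It holds 1 copy, at bases -56 to -49 before the start of the transcript Slc38a1-202, and lies in the first intron of Slc38a1-201. Both are from the GRCm39 genome, minus strand, at chr3:50398071-50398313 and chr15:96540279-96540371, written 5′ to 3′.
Slc7a11-201, bases -250 to -8: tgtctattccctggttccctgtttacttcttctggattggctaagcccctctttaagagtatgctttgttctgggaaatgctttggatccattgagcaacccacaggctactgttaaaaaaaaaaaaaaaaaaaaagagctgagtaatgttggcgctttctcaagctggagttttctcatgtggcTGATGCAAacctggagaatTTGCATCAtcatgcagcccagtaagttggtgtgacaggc
Slc38a1-202, bases -93 to -1: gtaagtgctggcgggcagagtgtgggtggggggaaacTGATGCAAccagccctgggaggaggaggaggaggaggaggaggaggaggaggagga
The core of the antioxidant response element, TGACNNNGC, was present in 10.0% of all windows and before 1 of the 10 genes, *Slc38a2*, at bases -9 to -1. The 2 motifs cannot start at the same base, and no window of the 10 genes held both. A match of letters is a description and not a binding site. Only the 250 bases before these starts were searched, so a gene without a match may hold the motif elsewhere.

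Before the members, the libraries were checked. *Dnm1l*, which encodes Drp1, had 72.7, 69.9 and 75.1 CPM (counts scaled to library size) in WT and 58.7, 60.7 and 66.3 CPM in Drp1KO libraries 1 to 3, so the groups did not overlap, but the difference was small (log2 fold change -0.23, SE 0.09, adjusted p = 0.248, edgeR). The gene sum includes reads from exons outside the floxed part, which the sources used here do not name. Depth was 24269850 to 28650715 estimated counts in WT and 23389488 to 32231206 in Drp1KO libraries, and 3 counts, taken as the floor, correspond to at most 0.129 CPM. Libraries 1 of both genotypes stood apart from libraries 2 and 3 on the second principal component (29.5% of the variance), while the first (46.0%) separated the genotypes, and they were the shallowest library of each group. Of the 9 macrophage markers, *Fcgr1* rose (log2 fold change 1.34, adjusted p = 0.000322) and *Mertk* and *Csf1r* fell (both -0.52, adjusted p = 0.0236 and 0.0340), and the summed level of the list was 13590 to 14995 CPM in WT and 12124 to 14546 CPM in Drp1KO libraries. Without WT library 2 or 3 or Drp1KO library 2 or 3 neither *Mertk* nor *Csf1r* passed, and *Csf1r* also did not without WT library 1 or with length-scaled counts (-0.30, adjusted p = 0.210). The summed neutrophil markers were 137.3 to 142.1 CPM in WT and 164.3 to 263.1 CPM in Drp1KO libraries, with *Ly6g* at 0 counts in every library. Of 9 tested markers, edgeR called 0 (3.36% of all genes), and 5 were higher with the replicate block (6.73% of all genes). DESeq2 called 2 higher, *S100a8* and *Ngp* (adjusted p = 0.0109 and 0.0112, 6.24% of all genes). With no filter beyond 1 count, 4 of 11 were higher (4.43% of all genes passed). The marker *Ngp* had log2 fold change 1.32 (adjusted p = 0.107, and 0.00264 with the block) and *S100a8* 1.38 (adjusted p = 0.122, and 0.00145 with the block). Dendritic cell markers summed to 9.401 to 11.6 and 7.17 to 9.39 CPM (0 of 7 called, *Zbtb46* -0.77 and *Flt3* -0.87), and fibroblast markers to 14.01 to 21.6 and 13.6 to 16.7 CPM (0 of 7 called). Of the latter, *Col1a2* had -0.72 (-0.92 to -0.48 with 1 library left out) and *Col3a1* -0.96 (-1.62 to -0.64, and -2.09 with length-scaled counts). The lymphocyte list (0 of 6 called by edgeR without the block) was led by *Cd4*, at 303.5 to 318.8 CPM in WT and 119.3 to 244.6 CPM in Drp1KO libraries. Its adjusted p was 0.0595 with edgeR and 0.00228 with the replicate block, and *Cd4* was called lower by DESeq2 (adjusted p = 0.000933) and limma-voom (adjusted p = 0.0360). *Cd8a* was at 1.02 to 1.68 CPM, with *Ncr1* at 0. The part of these shifts in the values of the transporters was not tested, and in bulk RNA fewer cells of a type cannot be told apart from less RNA per cell.

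The fitted Drp1KO level was 1.35 to 1.69 times that of WT for *Slc38a2*, *Slc7a1*, *Slc1a5*, *Slc7a5* and *Slc1a4*, and 0.522 times that of WT for *Slc7a2*. In the edgeR quasi-likelihood test without pairing, 0 of 10 passed an adjusted p of 0.05 (3.36% of all genes passed), and 6 had an unadjusted p under 0.05 (16.4% of all genes). DESeq2 called 1 of 10, *Slc7a2* (6.24% of all genes), and limma-voom 0 (3.37%). By the criteria of the study, an absolute log2 fold change over 0.32 with an unadjusted p under 0.05, 5 of 10 passed (12.7% of all genes), of which 4 were higher in Drp1KO (*Slc1a4*, *Slc1a5*, *Slc38a2* and *Slc7a1*, against 7.19% of all genes) and *Slc7a2* was lower (against 5.48%). Between same-numbered WT and Drp1KO libraries, deviations from the group mean correlated at 0.510, 0.204 and 0.298. WT library 2 and Drp1KO library 3, of different number, correlated at 0.326. The pairing was taken from these data and not from the labels, and it was clearest for libraries 1. With the replicate number as a block, *Slc7a5*, *Slc1a5*, *Slc38a2* and *Slc7a1* rose and *Slc7a2* fell at an adjusted p under 0.05, against 6.73% and 5.22% of all genes (12.0% in either direction). By the criteria of the study, 1 member passed without WT library 2 or 3 (*Slc7a2*, against 10.9% and 11.2% of all genes), 3 without Drp1KO library 1 or 2 (15.2% and 10.7%) and 7 without WT library 1 (14.8%). The median log2 fold change of the 10 was 0.33, against 0.00 over all genes tested, and 8 were above 0 and 2 below.

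**Figure D1:**
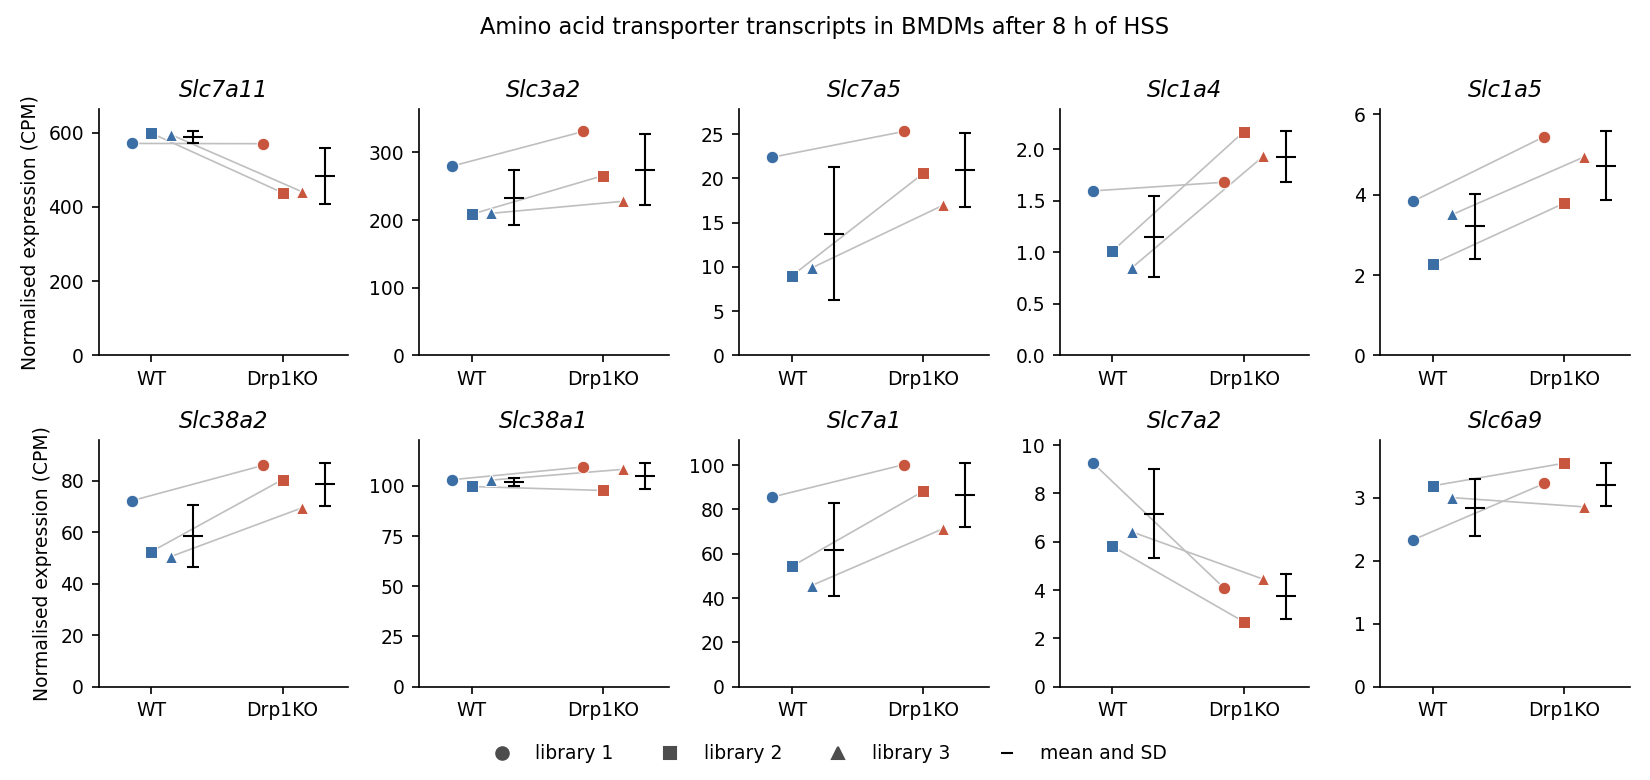
Normalised expression (CPM, TMM-scaled, linear axes from 0) of the 10 transporters in each WT (blue) and Drp1KO (red) library, with the mean and SD of 3 libraries in black and grey lines between libraries of the same number. *Slc7a2* is lower in Drp1KO in every pair, and *Slc7a5*, *Slc7a1* and *Slc38a2* are higher in every pair with library 1 the highest of its group.

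**Figure D2:**
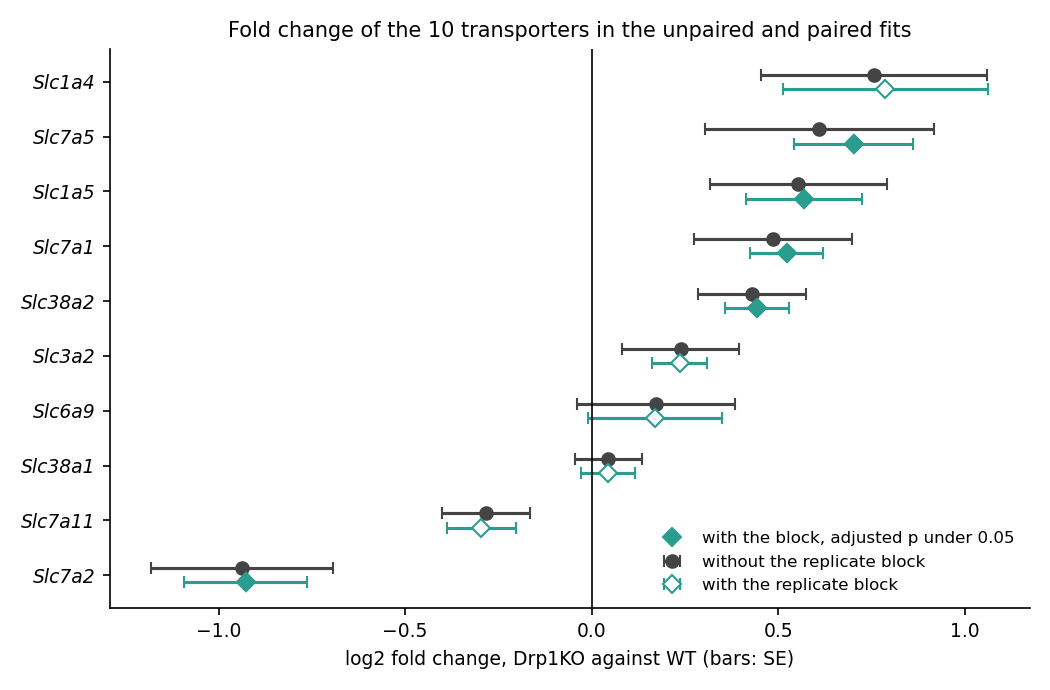
Fitted log2 fold change of Drp1KO against WT (horizontal axis, bars are SE) for each transporter, without (circles) and with (diamonds) the replicate number as a block. The values hardly move between the fits while the errors shrink with the block, for *Slc7a5* from 0.31 to 0.16, and the 5 filled diamonds passed an adjusted p of 0.05.

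*Slc7a11* (ENSMUSG00000027737, chr3:49846975-50398070, minus strand, GRCm39) encodes xCT, the cystine and glutamate exchanger. It was measured at 571.0, 598.8 and 594.7 CPM in WT and at 570.3, 438.1 and 440.6 CPM in Drp1KO libraries. Drp1KO libraries 2 and 3 were well under every WT library, whereas Drp1KO library 1 was level with WT library 1, so the groups only just failed to overlap. The fitted log2 fold change was -0.28 (SE 0.12, adjusted p = 0.259, edgeR), under the fold threshold of the study, and the adjusted p with the block was 0.0676. Without both libraries 1 it was -0.44 (adjusted p = 0.00818), and without Drp1KO library 1 alone -0.43 (adjusted p = 0.0348). Its main transcript, Slc7a11-201, held 89.1% ± 3.7 (SD, n = 3) of the gene's TPM in WT and 88.2% ± 3.6 in Drp1KO.

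*Slc3a2* (ENSMUSG00000010095, chr19:8684245-8701108, minus strand) encodes the heavy chain shared by Slc7a11 and Slc7a5. Its levels were 279.8, 208.7 and 210.1 CPM in WT and 331.0, 265.7 and 227.8 CPM in Drp1KO libraries. Every Drp1KO library was above the WT library of its number, but WT library 1 exceeded Drp1KO libraries 2 and 3. The log2 fold change of 0.24 (SE 0.16) did not pass the test without the block (adjusted p = 0.517) or with it (adjusted p = 0.0666). It was 0.07 without Drp1KO library 1, 0.39 without WT library 1, 0.36 without Drp1KO library 3, and 0.15 without WT library 2 or 3.

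*Slc7a5* (ENSMUSG00000040010, chr8:122607884-122634433, minus strand), the light chain for leucine and other large neutral amino acids, showed the widest gap between libraries of one group. It was at 22.4, 8.995 and 9.88 CPM in WT and at 25.3, 20.6 and 17.0 CPM in Drp1KO libraries. WT library 1 alone reached the Drp1KO range, while WT libraries 2 and 3 lay under all Drp1KO libraries. The log2 fold change was 0.61 (SE 0.31, adjusted p = 0.368), and with the block it was 0.70 (SE 0.16, adjusted p = 0.0167). Leaving out WT library 1 gave 1.14 (adjusted p = 0.00870, without the block), and leaving out WT library 2 or 3 gave 0.36 or 0.40.

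Since a light chain needs the heavy chain, each light chain was set against *Slc3a2* within its library, as a ratio of TPM (a level per length that kallisto gives). The *Slc7a11* to *Slc3a2* ratio was 0.507, 0.763 and 0.742 in WT and 0.417, 0.413 and 0.502 in Drp1KO libraries. In Drp1KO library 1, 12.6% of the *Slc3a2* TPM came from Slc3a2-204, a transcript of 239 bases with 45.8 estimated counts there. It had 0 counts in every WT library. All Drp1KO ratios lay under all WT ratios (0.671 ± 0.142 against 0.444 ± 0.050, SD, n = 3; exact two-sided permutation p = 0.1, the smallest that 3 against 3 allows). WT library 1 and Drp1KO library 3 nearly touched, and *Slc7a11* was lower in Drp1KO while *Slc3a2* was higher, with neither difference passing an adjusted p of 0.05 alone and that of *Slc3a2* close to 0 without Drp1KO library 1. The *Slc7a5* to *Slc3a2* ratio was 0.0366, 0.0194 and 0.0220 in WT and 0.0318, 0.0348 and 0.0340 in Drp1KO libraries, and the groups overlapped through WT library 1 (exact permutation p = 0.4). Further partners of the heavy chain, *Slc7a6*, *Slc7a7* and *Slc7a8*, gave ratios that overlapped between the groups (exact permutation p = 0.4, 1 and 0.3). Their own log2 fold changes were 0.33, 0.23 and -0.00056 (adjusted p = 0.366, 0.637 and 0.9996). That of *Slc7a6* was 0.79 with length-scaled counts, and that of *Slc7a7* ran from 0.06 to 0.47 with 1 library left out. Over the 5 ratios tested no p could pass a threshold of 0.05.

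**Figure D3:**
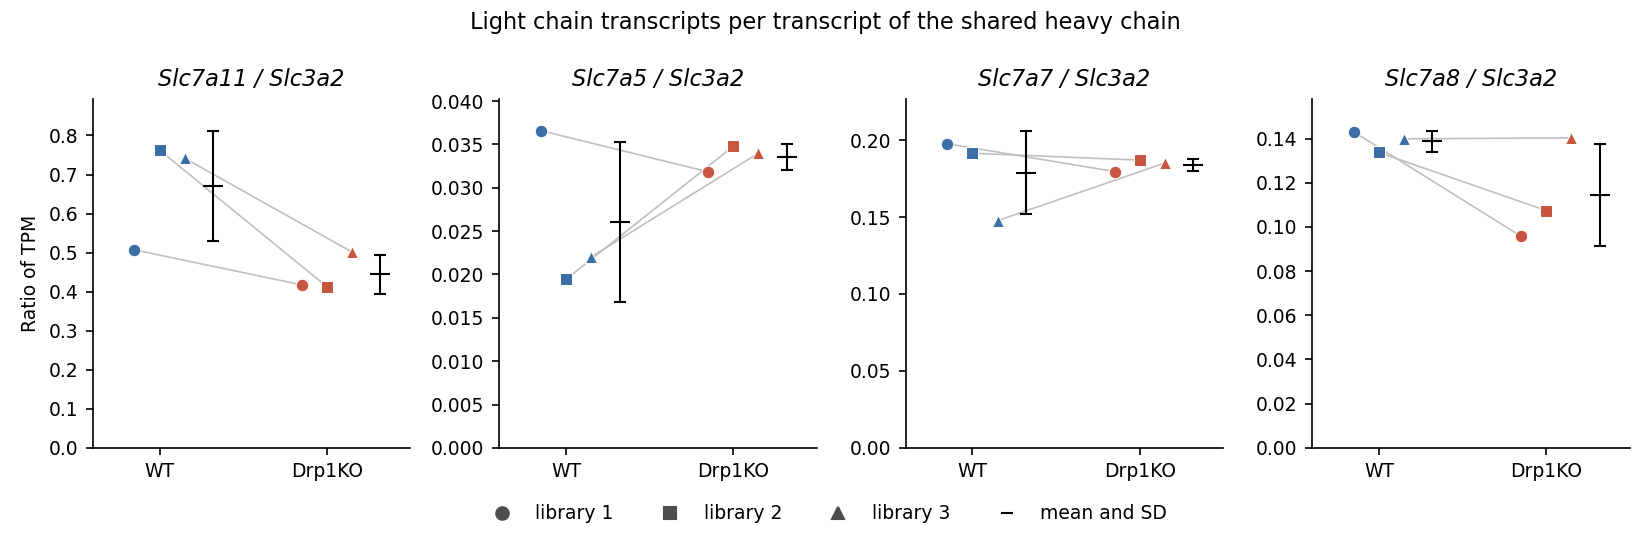
Ratio of light chain to *Slc3a2* transcripts (TPM over TPM, linear axes from 0) in each library, with the mean and SD of 3 libraries and grey lines between libraries of the same number. The *Slc7a11* ratio is lower in all Drp1KO libraries (0.413 to 0.502) than in all WT libraries (0.507 to 0.763), and the ratios of *Slc7a5*, *Slc7a7* and *Slc7a8* overlap.

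Among the neutral amino acid transporters, *Slc38a2* (ENSMUSG00000022462, chr15:96585266-96597894, minus strand), a sodium-coupled importer of glutamine and alanine known to be induced by amino acid shortage, was at 72.3, 52.5 and 50.6 CPM in WT and 86.0, 80.5 and 69.6 CPM in Drp1KO libraries. Only WT library 1 entered the Drp1KO range, and only above Drp1KO library 3. The log2 fold change was 0.43 (SE 0.15, adjusted p = 0.160), and with the block *Slc38a2* rose (0.44, SE 0.09, adjusted p = 0.00761). Without WT library 1 it passed with no block (0.61, adjusted p = 0.0198).

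*Slc1a5* (ENSMUSG00000001918, chr7:16515265-16532731, plus strand), the sodium-dependent exchanger of glutamine and other neutral amino acids, was a low-level gene here. It had 3.84, 2.29 and 3.51 CPM in WT and 5.45, 3.79 and 4.94 CPM in Drp1KO libraries, from 61 to 103 and 120 to 161 counts. Each Drp1KO library was above the WT library of its number, and the groups overlapped at 1 pair of libraries, WT 1 and Drp1KO 2. The log2 fold change was 0.55 (SE 0.24, adjusted p = 0.279), and with the block 0.57 (SE 0.16, adjusted p = 0.0380). Part of the sum came from retained-intron transcripts, above all Slc1a5-202, with 55.5 counts in Drp1KO library 1 and 0 to 16.9 in the others. The only protein-coding transcript, Slc1a5-201, had 85.3, 44.9 and 90.6 counts in WT and 64.5, 116.1 and 140.7 in Drp1KO libraries, so in counts Drp1KO library 1 was below WT library 1. From protein-coding transcripts only the log2 fold change was 0.37 (unadjusted p = 0.244, adjusted p = 0.583), which does not pass the criteria of the study, and without WT library 2 it was 0.34.

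*Slc1a4* (ENSMUSG00000020142, chr11:20252180-20282774, minus strand), a related exchanger of alanine, serine and cysteine, was the lowest of the 10. Its counts were 37, 27 and 25 in WT and 37, 71 and 63 in Drp1KO libraries, or 1.596, 1.01 and 0.852 CPM against 1.68, 2.17 and 1.93 CPM. The groups did not overlap, which 11.7% of all genes shared in this direction, but libraries 1 were nearly equal. The log2 fold change of 0.76 (SE 0.30) did not pass without the block (adjusted p = 0.245) or with it (adjusted p = 0.0964), and was 1.13 without both libraries 1 (adjusted p = 0.0326).

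The gene sum of *Slc38a1* (ENSMUSG00000023169, chr15:96469298-96541851, minus strand), a second sodium-coupled glutamine importer, was nearly level across the libraries. It had 103.1, 99.7 and 102.9 CPM in WT and 109.5, 97.8 and 108.3 CPM in Drp1KO libraries, with a log2 fold change of 0.04 (SE 0.09, adjusted p = 0.881). Its transcripts were not level. Its 3 most abundant protein-coding transcripts, Slc38a1-201, Slc38a1-202 and Slc38a1-203, have the same coding exons (1455 bases) and differ in the first exon, at chr15:96540372-96541174, chr15:96540009-96540278 and chr15:96538935-96539918, and Slc38a1-203 has in addition a shorter last exon. Slc38a1-202 was at 3.87, 3.67 and 3.51 TPM in WT and at 7.07, 6.97 and 7.03 TPM in Drp1KO libraries. Slc38a1-201 went the other way, with 9.97, 9.52 and 11.4 TPM in WT and 6.94, 6.07 and 8.36 TPM in Drp1KO libraries. Neither transcript's groups overlapped, and libraries 1 did not stand apart. The share of all transcripts without overlap was not counted, and for gene sums it was 11.7% higher and 10.3% lower. Of the 3 transcripts together, Slc38a1-202 made up 17.3% ± 1.58 in WT and 34.5% ± 2.67 in Drp1KO, Slc38a1-201 made up 48.3% ± 1.92 and 34.7% ± 3.21, and Slc38a1-203 made up 34.4% ± 0.484 and 30.9% ± 2.08 (SD, n = 3). In estimated counts, Slc38a1-202 had 453 to 490 in WT and 835 to 1191 in Drp1KO libraries. This pattern was picked out after the transcript values were seen, so it is given without a test, and the values are kallisto's split of reads between transcripts that share most of their bases. The start of Slc38a1-202 lies 896 bases downstream of that of Slc38a1-201, and the second stretch shown above precedes it. That stretch was searched because these levels had been seen to differ, and the start of Slc38a1-203 was not searched. The part of the motif in these levels was not tested.

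**Figure D4:**
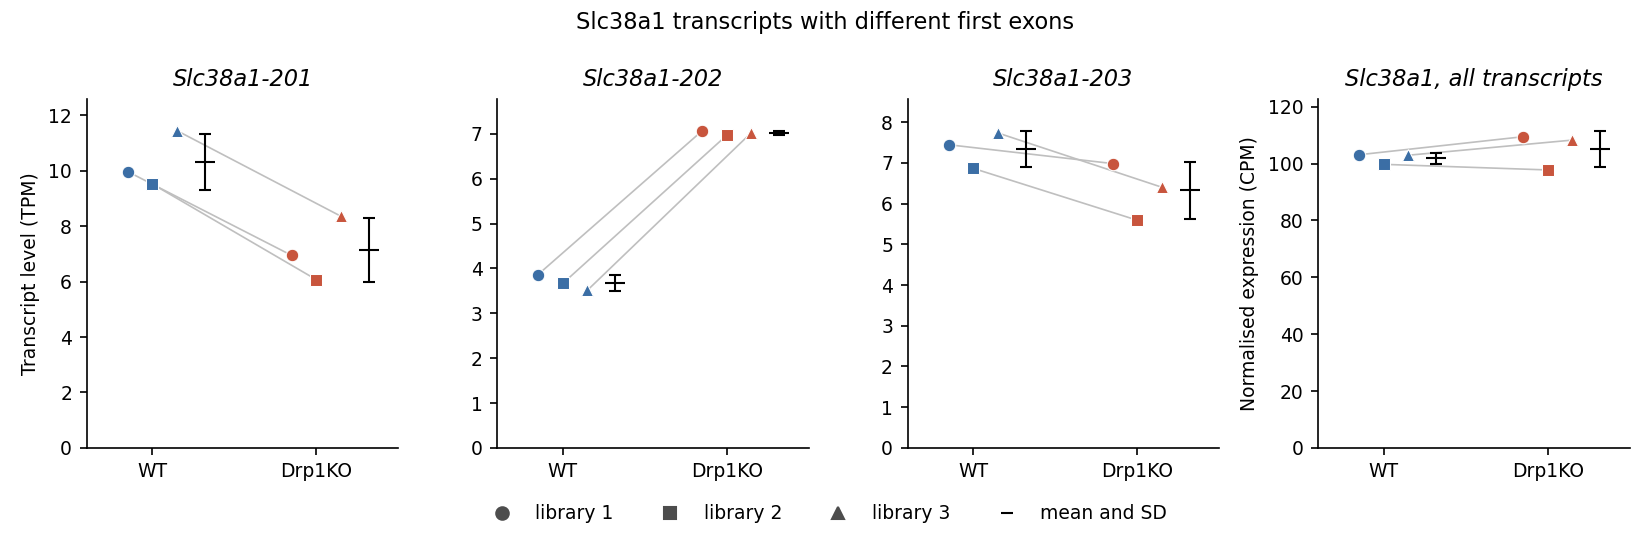
Levels of the 3 leading coding *Slc38a1* transcripts (TPM) and of the gene sum (CPM) in each library, linear axes from 0, with the mean and SD of 3 libraries and grey lines between libraries of the same number. Slc38a1-202 lies at 3.51 to 3.87 TPM in WT and at 6.97 to 7.07 TPM in Drp1KO, Slc38a1-201 is lower in Drp1KO, and the gene sum overlaps between the groups.

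The arginine transporters *Slc7a1* and *Slc7a2* went in opposite directions. *Slc7a1* (ENSMUSG00000041313, chr5:148264220-148336848, minus strand), the widely expressed cationic amino acid transporter, was at 85.6, 54.3 and 45.7 CPM in WT and 100.2, 88.2 and 71.3 CPM in Drp1KO libraries. WT library 1 was the only WT value within the Drp1KO range. The log2 fold change was 0.49 (SE 0.21, adjusted p = 0.289), and with the block *Slc7a1* rose (0.52, SE 0.10, adjusted p = 0.00613). With no block it was 0.79 without WT library 1 (adjusted p = 0.0202) and 0.29 without WT library 3.

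*Slc7a2* (ENSMUSG00000031596, chr8:41315431-41375345, plus strand), the cationic transporter known to be inducible in activated macrophages, was at 9.27, 5.81 and 6.41 CPM in WT and 4.09, 2.69 and 4.45 CPM in Drp1KO libraries. All Drp1KO values lay under all WT values, as they did for 10.3% of all genes. Its log2 fold change was -0.94 (SE 0.24, adjusted p = 0.0707), and with the block it fell (-0.93, SE 0.17, adjusted p = 0.00500). It passed the criteria of the study in all 16 other settings, single libraries left out among them, and its log2 fold change ran from -1.09 to -0.71. Its leading transcript, Slc7a2-203, was at 1.74, 0.960 and 1.23 TPM in WT and 0.581, 0.243 and 0.886 TPM in Drp1KO libraries. The share of transcripts with the exon at chr8:41361093-41361232, in place of the exon at chr8:41361435-41361571 used by Slc7a2-201, was 91.9% ± 7.48 in WT and 76.9% ± 27.6 in Drp1KO, which overlapped, and rested on 88 to 215 counts per library for the whole gene.

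*Slc6a9* (ENSMUSG00000028542, chr4:117691703-117732395, plus strand), the glycine transporter, was at 2.33, 3.19 and 2.999 CPM in WT and 3.22, 3.54 and 2.85 CPM in Drp1KO libraries. The groups overlapped, and neither the test without the block (log2 fold change 0.17, SE 0.21, adjusted p = 0.781) nor with it (adjusted p = 0.643) passed. Its value was 0.48 from protein-coding transcripts only (adjusted p = 0.415), 0.32 with length-scaled counts, 0.05 without WT library 1 and 0.10 without Drp1KO library 2.

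Libraries 1 were high for most of these genes in both genotypes. In WT, library 1 had the highest CPM for 8 of 10 members, and in Drp1KO for 7 of 10. In WT the gap was largest for *Slc7a5*, whose library 1 was 1.246 log2 units above the mean of libraries 2 and 3 (0.43 in Drp1KO), and it was 0.78 for *Slc7a1* (0.33 in Drp1KO). The gap of *Slc1a4* was also 0.78 in WT but went the other way in Drp1KO (-0.29). *Slc7a11* had no such gap in WT (-0.06) and 0.38 in Drp1KO. With both libraries 1 left out, 5 members passed an adjusted p of 0.05, with *Slc7a5*, *Slc1a4*, *Slc38a2* and *Slc7a1* higher and *Slc7a11* lower, against 10.5% of all genes in either direction (5.94% higher and 4.56% lower), while *Slc7a2* had an adjusted p of 0.0744. The shallower depth of these libraries moved with this pattern and its part in it was not tested.

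Per length, the heavy chain was the most abundant of the 10 transcripts in both groups. In WT the mean levels were 180.8 ± 27.8 TPM for *Slc3a2*, 118.6 ± 9.36 for *Slc7a11*, 37.3 ± 1.77 for *Slc38a1*, 19.6 ± 3.40 for *Slc38a2*, 11.6 ± 3.37 for *Slc7a1* and 4.88 ± 2.53 for *Slc7a5* (SD, n = 3), and the ranges of neighbours in this order did not overlap. *Slc6a9*, *Slc1a5* and *Slc7a2* followed at 1.68, 1.66 and 1.59 TPM with overlapping ranges, and *Slc1a4* was last at 0.383 TPM. In Drp1KO the first 6 kept this order, from 210.0 ± 43.7 TPM for *Slc3a2* and 92.3 ± 13.8 for *Slc7a11* to 7.01 ± 1.17 for *Slc7a5*. *Slc1a5* (2.31 TPM) and *Slc6a9* (1.97 TPM) overlapped there, as did *Slc7a2* (0.776 TPM) and *Slc1a4* (0.609 TPM). *Slc3a2* and *Slc7a11* together made up 77.6% to 80.1% of the summed TPM of the 10 genes in WT and 76.1% to 78.2% in Drp1KO libraries. The level of *Slc38a1* includes a short retained-intron transcript, and from protein-coding transcripts only it was 22.9 TPM in WT and 22.2 TPM in Drp1KO. *Slc38a2* was then at 18.9 TPM in WT and 24.2 TPM in Drp1KO, so the order of the 2 means changed in Drp1KO, and their ranges overlapped in both groups. Restricting to protein-coding transcripts also lowered *Slc6a9* in WT to 1.02 TPM and *Slc1a5* in Drp1KO to 1.47 TPM.

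The genes whose centred log2 CPM ran closest to *Slc7a11* over the 6 libraries, among 7953 genes of at least 10 CPM on average, were *Ssb*, *Ankrd11* and *Rassf3*, with root mean square differences of 0.037, 0.046 and 0.047 log2 units. Closest to *Slc3a2* were *Amz1*, *Tbc1d9* and *Cep170b* (0.021, 0.029 and 0.033). None of these 6 genes is a transporter of amino acids.

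The other amino acid transporters did not share the positive median of the 10. Of 43 on the list, 36 were tested, 0 rose and 2 fell, against 2.29% and 1.06% of all genes, and their median log2 fold change was -0.04. The 7 that were not tested had 0 to 8 counts each over the 6 libraries. *Slc43a2*, a carrier of large neutral amino acids, fell from 2064, 1866 and 1917 CPM in WT to 1412, 1236 and 1302 CPM in Drp1KO libraries (log2 fold change -0.57, SE 0.10, adjusted p = 0.0153). *Slc1a3*, a glutamate transporter, fell from 1.90, 1.57 and 1.43 CPM to 0.409, 0.550 and 0.552 CPM (log2 fold change -1.67, SE 0.32, adjusted p = 0.0207), and did not pass with length-scaled counts or from protein-coding transcripts only. With the block 4 fell and 0 rose, against 5.22% and 6.73% of all genes. The median was between -0.18 and -0.03 with 1 library left out. Leaving out WT library 2, WT library 3, Drp1KO library 2 or Drp1KO library 3 left 0 calls, where 1%, 1.20%, 1.49% and 1.93% of all genes passed in either direction.

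ATF4-responsive genes other than the transporters had a median log2 fold change of 0.39, which was 0.20 without WT library 3 and 0.59 without WT library 1. Of 27, 26 were tested, 4 rose and 0 fell, against 2.29% of all genes higher, and with the block 12 rose, against 6.73%. The 4 make amino acids or restrain the response. *Psat1* (log2 fold change 1.02, adjusted p = 0.0212) and *Phgdh* (0.92, adjusted p = 0.0455) belong to serine synthesis, *Asns* (0.84, adjusted p = 0.0356) makes asparagine, and *Trib3* (1.01, adjusted p = 0.0383) is a feedback inhibitor of ATF4. *Asns* was at 41.2, 29.01 and 24.1 CPM in WT and 56.8, 63.0 and 48.5 CPM in Drp1KO libraries, without overlap. *Atf4* itself was at 205.9, 148.6 and 141.6 CPM in WT and 302.6, 243.9 and 170.9 CPM in Drp1KO libraries, so WT library 1 again exceeded Drp1KO library 3 (log2 fold change 0.53, adjusted p = 0.218, and 0.00442 with the block, but 0.31 without Drp1KO library 1). *Ddit3*, a stress-induced partner of C/EBP proteins, had 0.87 (adjusted p = 0.225, 0.00147 with the block, and 0.0391 without WT library 1, where it was 1.31) and *Chac1*, which degrades glutathione, 1.01 (adjusted p = 0.207, and 0.0193 with the block, but 0.68 without Drp1KO library 1). The count of 4 fell to 0 without WT library 2, WT library 3 or Drp1KO library 2. In these fits 1%, 1.20% and 1.49% of all genes passed in either direction, against 3.36% with all libraries. The count was 2 without Drp1KO library 1 (4.96% of all genes) and 9 without WT library 1 (4.08%). It was also 9 without both libraries 1, where 5.94% of all genes were higher. *Psat1* did not pass with length-scaled counts (adjusted p = 0.0510) and *Phgdh* not with median-of-ratios size factors (adjusted p = 0.0513). From protein-coding transcripts only 5 rose and 1 fell, *Eif4ebp1*, a repressor of translation (-0.41, adjusted p = 0.0395, against -0.19 and adjusted p = 0.503 from all transcripts), which is named because it was the only one lower.

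**Figure D5:**
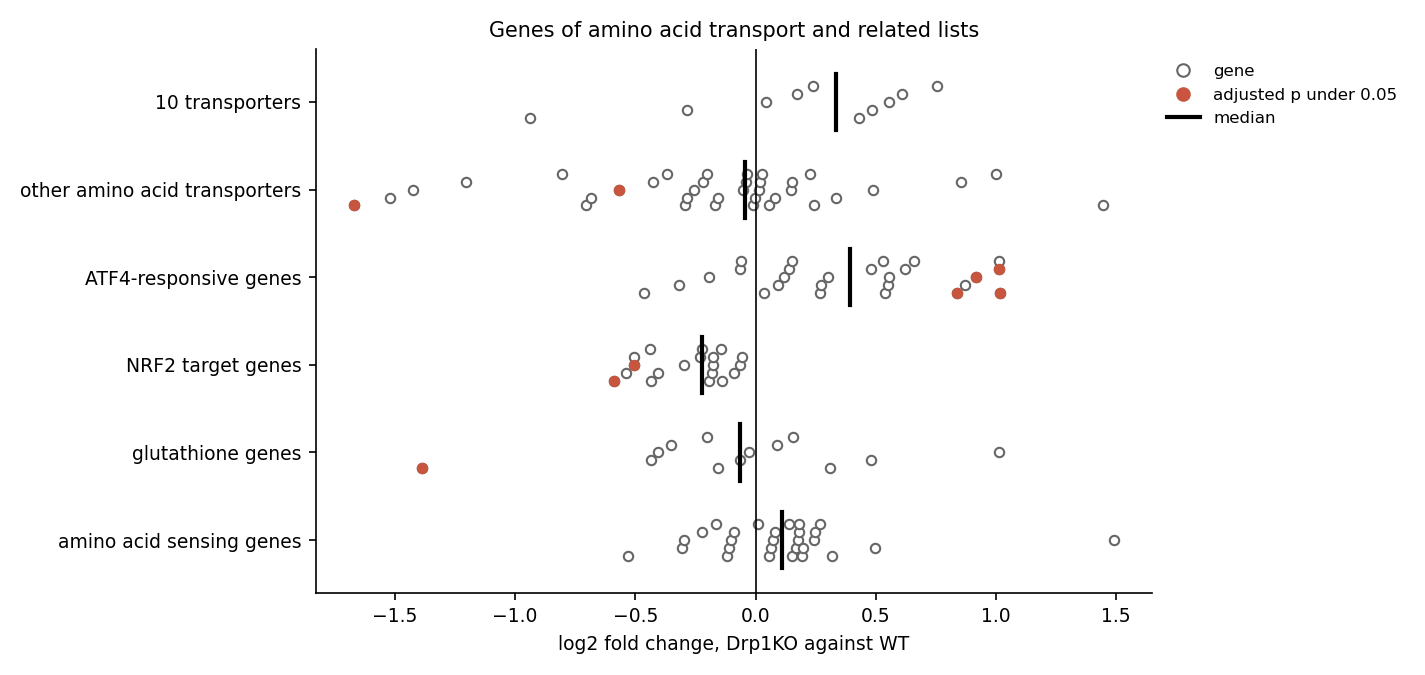
Fitted log2 fold change (horizontal axis) of each gene tested in the 10 transporters and 5 further lists, with list medians as black bars and genes with an adjusted p under 0.05 in red. The 10 transporters (median 0.33) and the ATF4-responsive genes (0.39) lie mostly to the right of 0, and all 19 NRF2 target genes (-0.22) lie to the left in the fit plotted, of which *Gclm* was at 0.22 with length-scaled counts.

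NRF2 target genes, the other set to which *Slc7a11* is known to belong, ran the other way. All 19 were tested and all 19 had a log2 fold change below 0, where 49.4% of all genes did, with a median of -0.22 (-0.47 without Drp1KO library 1 and -0.35 without both libraries 1), and 2 fell, against 1.06% of all genes. *Txnrd1*, a thioredoxin reductase, fell (-0.59, SE 0.12, adjusted p = 0.0317), and so did *Abcc1*, an exporter of glutathione conjugates (-0.51, SE 0.09, adjusted p = 0.0153). With the block 7 fell, against 5.22% of all genes, and without both libraries 1 it was 10, against 4.56%. The count was 0 without WT library 2, WT library 3, Drp1KO library 2 or Drp1KO library 3. In these fits 1%, 1.20%, 1.49% and 1.93% of all genes passed in either direction. The count was 1 without WT library 1 (4.08% of all genes) and 6 without Drp1KO library 1 (4.96%). *Hmox1*, which degrades heme, was at 3999, 3663 and 3617 CPM in WT and 3348, 2071 and 2339 CPM in Drp1KO libraries (-0.54, adjusted p = 0.123, 0.00461 with the block, and 0.00697 without Drp1KO library 1). *Nqo1* had -0.44 (adjusted p = 0.245), *Gclm*, a subunit of the enzyme that starts glutathione synthesis, -0.07 (adjusted p = 0.820), and *Nfe2l2*, which encodes NRF2, -0.07 (adjusted p = 0.868). The value of *Gclm* was 0.22 with length-scaled counts.

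The genes that use the transported amino acids were mixed. Of 13 glutathione genes tested, 1 fell and 0 rose, against 1.06% and 2.29% of all genes. *Ggt5*, an enzyme that cleaves extracellular glutathione conjugates, fell from 2.79 to 3.79 CPM in WT to 0.999 to 1.31 CPM in Drp1KO libraries (log2 fold change -1.39, adjusted p = 0.0153). With the block 4 fell and 1 rose, against 5.22% and 6.73% of all genes, and *Ggt5* did not pass without WT library 2 or 3 or Drp1KO library 2 or 3, from protein-coding transcripts only (adjusted p = 0.0797), or with length-scaled counts (adjusted p = 0.0549). Of 13 arginine and polyamine genes 0 passed in edgeR without the block (3.36% of all genes). With the block 2 rose (6.73% of all genes), *Azin1*, which promotes polyamine synthesis (0.41, adjusted p = 0.108, and 0.00903 with the block), and *Gatm*, of creatine synthesis (0.42, adjusted p = 0.116, and 0.00687 with the block). DESeq2 called 1, *Azin1* (adjusted p = 0.0467, 6.24% of all genes). *Azin1* also passed with no filter beyond 1 count (adjusted p = 0.0451) and without WT library 1 (adjusted p = 0.0212). *Nos2*, which makes nitric oxide from arginine, had 0.30 (adjusted p = 0.709) and -0.20 without Drp1KO library 1, with 73.1 CPM in Drp1KO library 1 and 27.8 to 45.1 CPM in all others. In the glutamine and glutamate list *Asns* alone of 9 passed, and it was higher (3.36% of all genes passed, 2.29% higher). It did not pass without WT library 2 or 3 or Drp1KO library 1 or 2. With the block *Glul*, glutamine synthetase, fell in addition (-0.34, adjusted p = 0.0149, against 0.161 without the block). It was named after its values were seen, and its log2 fold change was 0.13 with length-scaled counts, without the block. Of 28 amino acid sensing genes 0 passed, with *Lamtor5* and *Lamtor2*, subunits of the lysosomal scaffold for mTORC1, closest at 0.50 and -0.53 (adjusted p = 0.0669 and 0.136). With the block 1 sensing gene rose and 3 fell, against 6.73% and 5.22% of all genes, with *Lamtor5* and *Lamtor2* among them (adjusted p = 0.0114 and 0.00552).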

How the data were processed

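Poly(A) RNA of BMDMs from both genotypes after HSS was sequenced in 3 libraries per group. The authors quantified reads with kallisto 0.46.1 against Ensembl cDNA of GRCm39, and deposited an estimated count and a TPM value per transcript, neither scaled between libraries. Of 116873 transcripts, 116159 were matched by identifier to GENCODE vM39 and the rest left out. The deposited estimated counts (expected counts) were summed per gene and rounded, and genes with at least 10 counts in total were fitted with edgeR 4.0.16 in R 4.3.3 (TMM, quasi-likelihood test, no covariate, Benjamini-Hochberg over 18506 genes). SEs were derived from the F statistic of each gene and its log2 fold change. The deposited TPM values were summed for levels and ratios. CPM are scaled by TMM, with a prior count of 2 on the log2 scale.

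The members and lists were chosen with earlier results of these data known. Named genes were the members, *Dnm1l*, up to 6 genes called in each list or the 2 with the smallest p, and 14 stress, redox, arginine and light chain genes given whatever their values, and some of the genes so chosen are not reported here. Replicate numbers 1 to 3 were taken to pair libraries, from the data: deviations from group means correlated at 0.510, 0.204 and 0.298 for equal numbers, each over 0.1, and at -0.443 to 0.326 for different ones (12248 genes). No library was a copy of another (chi-square per degree of freedom at least 8.55). Counts were simulated for 18127 genes without a library or pair effect, with 200 changed (median fitted log2 fold change 1.02 up and -1.03 down). The test recovered 82.0% of the changed genes with 13 false calls, which does not measure its power for smaller changes. Alternatives were DESeq2 1.42.0, limma-voom (limma 3.58.1), other size factors, filters and transcript sets, the replicate block, and each library left out. Motifs were searched in the GRCm39 genome.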

Additional observations from a re-analysis of the deposited data

How the results depend on the processing

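Leaving out libraries 1 was chosen after seeing the data. The count of members with an adjusted p under 0.05, 0 in the fit reported, was 1 with DESeq2, 1 with no filter beyond 1 count, 5 with the replicate block and 5 without both libraries 1, and ran from 0 to 3 with 1 library left out. The count by the criteria of the study, 5, ran from 1 to 7 with 1 library left out and from 4 to 7 otherwise. The count of other transporters, 2, was 1 with length-scaled counts, 1 with protein-coding transcripts only and 4 with the replicate block, and ran from 0 to 2 with 1 library left out. The count of ATF4-responsive genes, 4, was 8 with DESeq2, 8 with no filter beyond 1 count, 12 with the replicate block and 9 without both libraries 1, and ran from 0 to 9 with 1 library left out. The count over all genes, 621, was 1155 with DESeq2, 1065 with no filter beyond 1 count, 2212 with the replicate block, 1880 without both libraries 1, and 181 to 904 with 1 library left out. The cause of these differences was not tested. The median of the members stayed positive in every setting (0.25 to 0.50), and the *Slc7a11* to *Slc3a2* ratio difference stayed negative (-0.77 to -0.47 with 1 library left out). No member reversed in a count fit. Among the genes named by the rule, the values that changed sign, none of which had passed the test, were those of *Slc38a1* on log2(TPM + 0.1) (-0.0236), of *Gclm* with length-scaled counts (0.223), of *Nos2* without both libraries 1 (-0.0405), and of *Slc7a8* with limma-voom (0.0135), protein-coding transcripts only (0.0250), the replicate block (0.0135) and without both libraries 1 (0.106). With 1 library left out, *Nfe2l2* ran from -0.231 to 0.0360, *Nos2* from -0.200 to 0.522 and *Slc7a8* from -0.110 to 0.172. *Glul*, named after its values were seen and called lower only with the replicate block and without both libraries 1, also changed sign with length-scaled counts (0.130). Apart from those given with their blocked p, the replicate block changed no call of a named gene. The 3 members lowest in total counts, *Slc1a4*, *Slc6a9* and *Slc1a5*, with 25 to 161 counts per library, had SEs of 0.30, 0.21 and 0.24, and the largest SE, 0.31, was that of *Slc7a5*.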
